A study of Homo sapiens with 16 samples.

Results

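Matrix metalloproteinases (MMPs) are enzymes that cut collagen, laminin, fibronectin and other proteins outside the cell, and tissue inhibitors of metalloproteinases (TIMPs) are small secreted proteins that block them. The 10 genes described here are 7 MMPs (MMP1, MMP3, MMP7, MMP9, MMP10, MMP13 and MMP14) and 3 TIMPs (TIMP1, TIMP2 and TIMP3). They were taken by gene symbol from tables of 58735 genes, in which each of the 10 symbols occurs once, and all 10 are accounted for below.

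BxPC3 and PANC-1, both established lines from human pancreatic ductal adenocarcinoma, were sequenced after poly-A enrichment of their RNA. Per line there were 4 libraries of untreated control cells and 4 of cells given gemcitabine, a deoxycytidine analogue that stops DNA synthesis. No dose, time, further agent or allele is labelled. Separate cultures are not stated for the libraries of a group, and the spread that p-values rest on may thus be technical.

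Depth was 22152034 to 37777222 reads per library over all listed genes. Levels are FPKM, fragments per kilobase of gene scaled to the depth of each library, so they can be set beside each other between genes, and 3 reads on a gene of 1 kb were worth 0.0803 to 0.138 FPKM. SMAD4, which BxPC3 is known to lack, had 0 reads in all 8 BxPC3 libraries and 3.84 ± 0.193 FPKM (SD, n = 4) in PANC-1 controls. CDKN2A, which both lines are known to lack, had 0 reads in all 16 libraries. All 6 epithelial markers passed the filter in BxPC3, but only 4 of 6 did in PANC-1, where KRT7 was at 0.530 FPKM and CDH1 at 0.921 FPKM in controls. The 6 summed to 2826 to 3297 FPKM in BxPC3 controls and 2672 to 3101 with gemcitabine, and to 337 to 369 and 551 to 758 FPKM in PANC-1. There 3 of the 4 tested rose, beside 20.7% of all tested genes. The 2 under the filter split in PANC-1. With gemcitabine KRT7 was at 1.17 FPKM, wholly above its controls, and CDH1 at 0.551 FPKM, wholly below its controls. The 9 fibroblast markers summed to 6.56 to 7.24 FPKM in BxPC3 controls and 4.17 to 4.57 with gemcitabine, and to 17.0 to 18.5 and 11.1 to 15.9 in PANC-1. The 8 leukocyte markers summed to 7.62 to 9.08 and 7.78 to 9.25 in BxPC3 and to 1.31 to 1.55 and 3.39 to 6.01 in PANC-1. PTPRC, which defines leukocytes, had a mean of at most 0.0143 FPKM in every group. The 4 endothelial markers summed to 1.38 to 1.61 and 5.59 to 6.29 FPKM in BxPC3 and to 0.380 to 0.634 and 3.11 to 3.77 in PANC-1. In BxPC3 CDH5 was at 0.603 and 5.76 FPKM and PECAM1 at 0.756 and 0.132 FPKM, and in PANC-1 KDR was at 0.515 and 3.47 FPKM. The part of these markers in the results was not tested. In bulk RNA, fewer cells of a kind and less RNA per cell cannot be told apart.

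MMPs are made as inactive precursors. A propeptide covers a zinc ion in the active site until another protease cuts it away, and the active enzyme is then held in check by TIMPs, which plug the same site. The members differ in what they cut. MMP1 and MMP13 are collagenases that open the triple helix of fibrillar collagen, MMP3 and MMP10 are stromelysins with broad matrix substrates that also activate other MMPs, MMP7 is a small matrilysin of epithelial cells, MMP9 is a gelatinase that cuts denatured collagen and basement membrane collagen, and MMP14 is anchored in the cell membrane. In pancreatic tumours, which are rich in collagen, both the tumour cells and the surrounding stroma make members of both families.

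The zinc site is what makes these genes 1 family, and its coding bases also show which members are near copies of each other. The 33 coding bases of the site are given from the GENCODE 29 transcripts on GRCh38, in the reading direction of each gene, with the codons of the 3 zinc-binding histidines in capitals.
MMP1, exon 5, chr11:102795549-102795581, minus strand: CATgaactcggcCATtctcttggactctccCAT
MMP13, exon 5, chr11:102952115-102952147, minus strand: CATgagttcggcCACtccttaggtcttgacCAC
MMP3, exon 5, chr11:102840535-102840567, minus strand: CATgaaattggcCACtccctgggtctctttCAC
MMP10, exon 5, chr11:102776718-102776750, minus strand: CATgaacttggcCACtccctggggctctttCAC
MMP7, exon 5, chr11:102523343-102523375, minus strand: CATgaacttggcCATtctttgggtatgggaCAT
MMP9, exon 8, chr20:46012453-46012485, plus strand: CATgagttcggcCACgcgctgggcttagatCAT
MMP14, exon 5, chr14:22843283-22843315, plus strand: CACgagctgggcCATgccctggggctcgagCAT

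All 3 histidines are encoded in all 7 genes, by either of their codons, and many of the bases between them differ. MMP3 and MMP10 differ at 2 of the 33 bases, whereas MMP1 and MMP3 differ at 9 and MMP1 and MMP9 at 12. Over their whole coding sequence MMP3 and MMP10 are identical at 85.2% of 1428 aligned bases, with a longest identical run of 96 bases. Of the 50-base windows of the MMP10 transcript, 59 of 1709 also occur in MMP3, which is 3.45%, and the other 5 MMPs share no such window with another member. The division of reads between MMP3 and MMP10 is therefore uncertain for that small part of each transcript.

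RefSeq promoter sequences on GRCh38.p14 were at hand for 5 of the 10 members. Those of MMP7, MMP10 and TIMP3 are shown because their RNA moved in different directions with gemcitabine. Each is the 120 bases up to the first of the starts of transcription in RefSeq and GENCODE 29, in the direction of the gene. Capitals mark matches on either strand to TGANTCA (the AP-1 motif, with any base allowed in the middle), TATAAA (the TATA box) and GGGCGG (the GC box).
MMP7, chr11:102530754-102530873, minus strand: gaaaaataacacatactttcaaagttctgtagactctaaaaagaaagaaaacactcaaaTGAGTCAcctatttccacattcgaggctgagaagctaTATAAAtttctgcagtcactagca
MMP10, chr11:102780629-102780748, minus strand: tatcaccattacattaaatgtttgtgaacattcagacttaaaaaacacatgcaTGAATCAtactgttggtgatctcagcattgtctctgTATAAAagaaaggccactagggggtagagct
TIMP3, chr22:32801581-32801700, plus strand: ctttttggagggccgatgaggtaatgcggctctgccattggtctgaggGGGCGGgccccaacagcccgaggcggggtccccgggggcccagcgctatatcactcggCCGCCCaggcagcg

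MMP7 and MMP10 each carry 1 match to this loose AP-1 pattern followed by 1 TATA match. The AP-1 match reads TGAGTCA in MMP7 and starts 61 bases before the end of the window. In MMP10 it reads TGAATCA and starts 67 bases before the end. Among the 35116 promoters of the table, each 300 bases long, TGANTCA occurs in 7.71% and TATAAA in 11.5%. The 300-base promoters of MMP14, TIMP1 and TIMP3 hold no AP-1 or TATA match and carry 1, 2 and 5 matches to GGGCGG, a motif found in 45.0% of promoters. These are matches of letters and nothing was measured at these sites.

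Gemcitabine was first compared with control in BxPC3. There 8 of the 10 members had at least 1 FPKM in at least 4 of the 8 libraries and entered the test, limma on log2(FPKM + 1) over 12215 genes adjusted by Benjamini-Hochberg and read at a threshold of 0.05. Of these 8, MMP1, MMP7, MMP9, TIMP1 and TIMP2 rose, MMP10 and TIMP3 fell, and MMP14 did not pass. In the same comparison 73.4% of all tested genes passed, 37.3% higher and 36.1% lower, so 7 of 8 is a share not far from that of genes at large. The gemcitabine libraries lay wholly above or below the controls for 67.5% of all tested genes in BxPC3, above for 34.3% and below for 33.2%. Log2 changes below are gemcitabine minus control of log2(FPKM + 1). The added 1 makes the change of scarce genes look smaller than it is, so folds are given as ratios of mean FPKM.

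In PANC-1, 6 members entered the test over 12508 genes. MMP1, MMP10, TIMP1 and TIMP2 rose, MMP14 fell, and TIMP3 did not pass, beside 44.8% of all tested genes that passed, 20.7% higher and 24.0% lower. The PANC-1 groups did not overlap for 45.8% of all tested genes, with gemcitabine above for 21.3% and below for 24.5%. MMP3, MMP7, MMP9 and MMP13 were too low in PANC-1 to be tested across genes, as were MMP3 and MMP13 in BxPC3. These 6 cases were compared by an exact permutation test of 4 against 4 libraries, 2-sided, which cannot go below p = 0.0286. MMP10 passed the filter through its control libraries in BxPC3 and through its gemcitabine libraries in PANC-1, and MMP9 in BxPC3 largely through its gemcitabine libraries, so a difference of these had to be seen once they were tested.

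**Figure D1:**
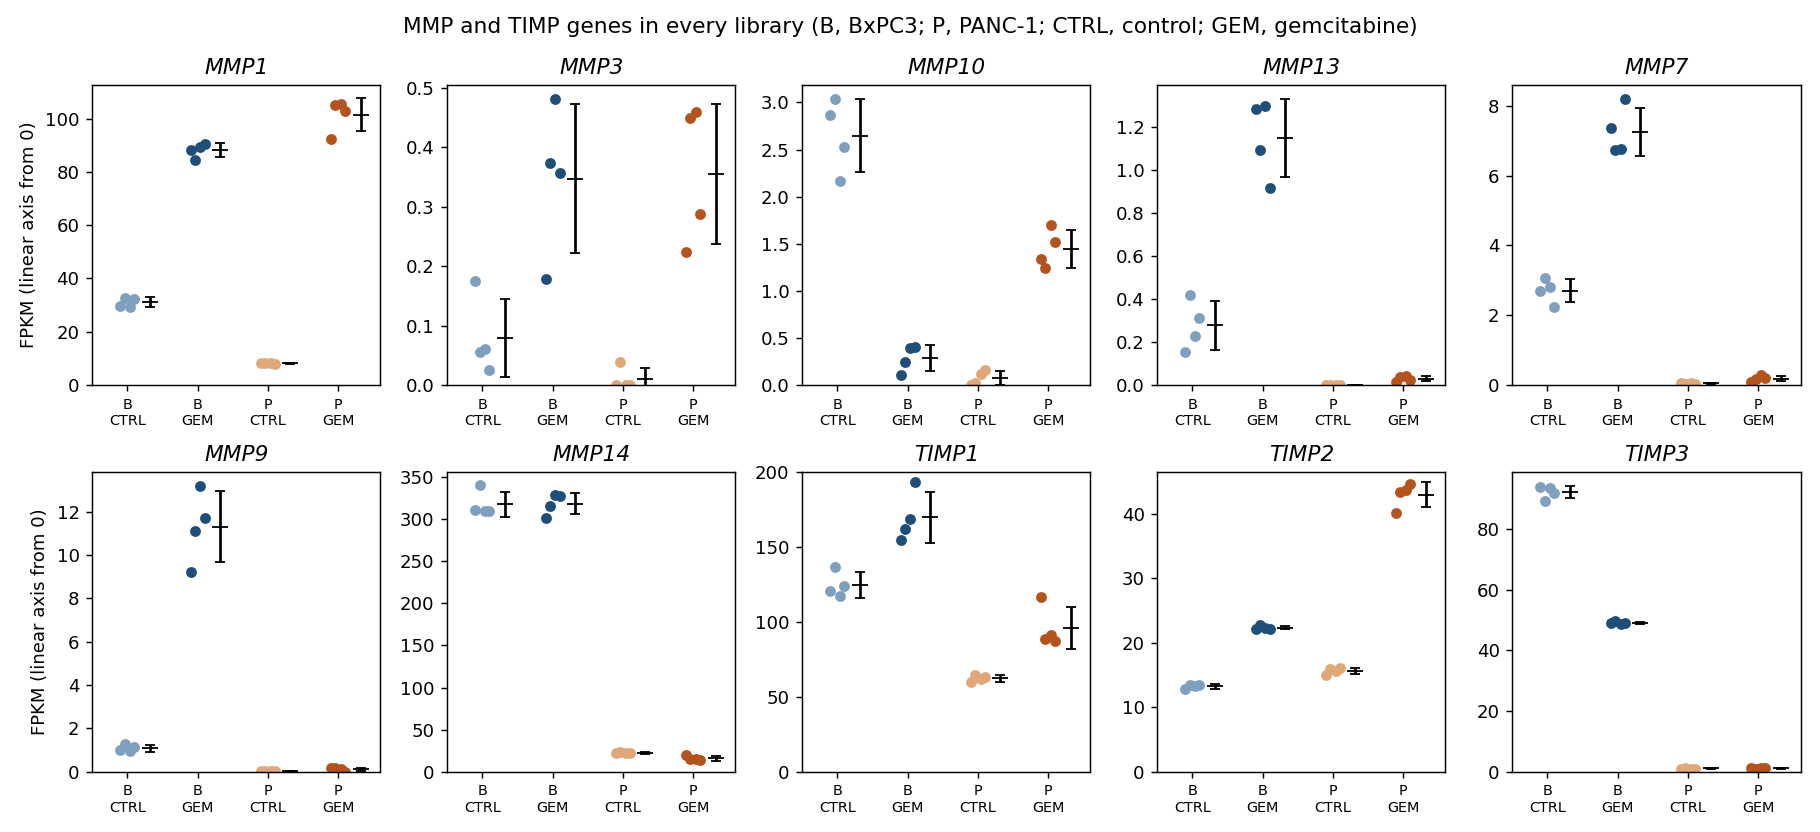
FPKM of each of the 10 genes in every library on linear axes from 0, with 4 points per group and the mean ± SD beside them, for BxPC3 (blue) and PANC-1 (orange), control pale and gemcitabine dark. MMP1 reaches 84.4 to 106 FPKM in the gemcitabine libraries of both lines from unequal control levels, and MMP10 is high in BxPC3 controls and in PANC-1 with gemcitabine.

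Among the collagenases, MMP1 (chromosome 11, 102789920 to 102798160 on GRCh38, minus strand) rose in both lines. The 4 BxPC3 control libraries held 29.5, 32.8, 29.4 and 32.4 FPKM, and the 4 gemcitabine libraries 88.2, 84.4, 89.5 and 90.3 FPKM. The gemcitabine libraries all lay far above the controls, a 2.84-fold higher mean with a log2 change of 1.48 ± 0.05 (SE) and a limma adjusted p of 2.82e-09. PANC-1 controls held 8.09, 8.27, 8.18 and 7.89 FPKM and gemcitabine libraries 92.4, 105, 106 and 103 FPKM. This was a 12.5-fold higher mean with a log2 change of 3.49 ± 0.06 (limma adjusted p = 8.40e-09). On the log2(FPKM + 1) scale it ranked 1 among the rises of 12508 genes in PANC-1 and 198 among those of 12215 in BxPC3, but the ratio of means of MMP10 in PANC-1 was higher. The lines thus stood at 31.1 ± 1.84 and 8.11 ± 0.162 FPKM as controls and at 88.1 ± 2.63 and 101 ± 6.18 FPKM (SD, n = 4) with gemcitabine. Levels of the lines come from tables normalized separately and are set side by side with no test.

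MMP13, the other collagenase (chromosome 11, 102942995 to 102955734, minus strand), was scarce. BxPC3 controls held 0.151, 0.417, 0.227 and 0.312 FPKM and gemcitabine libraries 1.28, 1.09, 1.30 and 0.917 FPKM. All 4 gemcitabine libraries were above all controls, 429 reads against 107, a 4.14-fold higher mean with an exact permutation p of 0.0286. When every gene with a read was tested, the log2 change was 0.75 with a limma adjusted p of 2.14e-04. PANC-1 controls had 0 reads of MMP13 and the gemcitabine libraries 1, 3, 3 and 2, which is at least 2.72-fold higher against a floor of 3 reads over the control group. That is too few reads to judge MMP13 in PANC-1.

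The stromelysins did not move alike. MMP10 (chromosome 11, 102770503 to 102780628, minus strand) fell in BxPC3 and rose in PANC-1. BxPC3 controls held 2.87, 3.03, 2.16 and 2.53 FPKM, and gemcitabine libraries 0.104, 0.242, 0.392 and 0.398 FPKM. The groups lay far apart, with 616 reads in controls and 66 with gemcitabine, a mean 9.31-fold lower, a log2 change of -1.51 ± 0.10 and a limma adjusted p of 3.46e-07. At these levels the size of the log2 change depends on the scale, and it was -2.91 with a pseudocount of 0.1, -2.33 on TPM and -3.34 with limma-voom on the recovered reads. PANC-1 controls held 0, 0.0228, 0.121 and 0.162 FPKM, 13 reads in all, and gemcitabine libraries 1.34, 1.24, 1.69 and 1.52 FPKM, 277 reads in all. Here every gemcitabine library was above every control, with a mean 19.0-fold higher and a log2 change of 1.18 ± 0.08 (limma adjusted p = 5.59e-06). The pooled reads gave a ratio of 19.3 with a 95% counting interval of 11.1 to 36.8, and without the fourth control library the ratio of means was 30.2. The log2 change of MMP10 in PANC-1 was 3.24 with a pseudocount of 0.1, 2.43 on TPM and 4.75 with limma-voom.

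MMP3 (chromosome 11, 102835801 to 102843803, minus strand) was near the limit of detection in both lines. In BxPC3 the controls held 0.174, 0.0563, 0.0599 and 0.0261 FPKM and the gemcitabine libraries 0.179, 0.375, 0.481 and 0.356 FPKM. The highest control and the lowest gemcitabine library nearly met, and the mean was 4.39-fold higher with gemcitabine on 20 and 94 reads (exact permutation p = 0.0286), or 7.33-fold without the first control library. In PANC-1 only 1 control library had any read of MMP3, 2 reads or 0.0391 FPKM, while the gemcitabine libraries held 0.225, 0.450, 0.459 and 0.288 FPKM on 80 reads. The ratio there was 36.3 with a 95% counting interval of 9.73 to 305 and an exact permutation p of 0.0286. Tested among all genes with a read, the limma adjusted p of MMP3 was 0.0144 in BxPC3 and 0.00310 in PANC-1. MMP3 and MMP10 thus had the same direction in PANC-1 and opposite directions in BxPC3, where the loss of MMP10 reads was larger than all reads of MMP3.

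MMP7, the matrilysin (chromosome 11, 102520508 to 102530753, minus strand), rose in BxPC3 from 2.71, 3.05, 2.81 and 2.25 FPKM to 7.37, 6.73, 6.75 and 8.19 FPKM. No gemcitabine library came near a control, and the mean was 2.68-fold higher with a log2 change of 1.16 ± 0.08 (limma adjusted p = 5.02e-07). PANC-1 controls held 0.0676, 0.0345, 0.0549 and 0.0349 FPKM and gemcitabine libraries 0.0991, 0.162, 0.287 and 0.201 FPKM. The PANC-1 groups did not overlap either, but rested on 11 and 48 reads (3.90-fold, exact permutation p = 0.0286, limma adjusted p among all genes with a read = 0.0461).

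MMP9, the gelatinase (chromosome 20, 46008908 to 46016561, plus strand), had the largest rise among the members in BxPC3. Its controls held 0.994, 1.28, 0.946 and 1.12 FPKM and the gemcitabine libraries 9.23, 11.1, 13.2 and 11.7 FPKM. The mean was 10.4-fold higher, with a log2 change of 2.55 ± 0.09 (limma adjusted p = 7.40e-09) that ranked 32 among the rises of 12215 genes. In PANC-1 each control library had 1 read of MMP9, and the gemcitabine libraries had 8, 11, 9 and 0. The group ranges overlapped through the library with no read, with an exact permutation p of 0.143. SLC12A5-AS1, on the opposite strand, shares 430 of the 2336 exon bases of MMP9 and was at 0.146 and 0.140 FPKM in PANC-1 controls and gemcitabine libraries. The strand setting of the counting is not known here, and the few MMP9 reads of PANC-1 cannot be told apart from reads of that RNA.

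MMP14, the membrane-type enzyme (chromosome 14, 22836557 to 22849027, plus strand), was the most abundant member in BxPC3. Controls held 311, 340, 310 and 309 FPKM and gemcitabine libraries 301, 315, 329 and 328 FPKM. The groups overlapped, and the log2 change of 0.00 ± 0.05 did not pass (limma adjusted p = 0.946). With values rescaled to TPM, so that each library sums to the same total, the change was 0.09 and passed (limma adjusted p = 0.0110). On TPM the median change over all tested genes was itself 0.08, beside 0.004 on FPKM. PANC-1 controls held 22.0, 23.3, 21.9 and 21.8 FPKM and gemcitabine libraries 20.2, 14.9, 15.1 and 13.8 FPKM. All gemcitabine libraries lay below the controls, the first by the least, and the mean was 1.39-fold lower (log2 change -0.47 ± 0.11, limma adjusted p = 0.00682).

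The first gemcitabine library of PANC-1 stood apart from the other 3 by GC content. The 3126 genes richest in GC deviated there by a median of 0.45 log2 units and the 3126 poorest by -0.42. MMP14, with 58.9% GC, deviated by 0.45 and TIMP1, with 57.9% GC, by 0.38, against -0.18 for MMP1, with 43.4% GC. TIMP2, with 53.7% GC, deviated by -0.13, although genes of its quartile deviated by a median of 0.14. Without that library MMP14 changed by -0.58 ± 0.04 and TIMP1 by 0.51 ± 0.03, and the same 5 members passed. The number of all genes called in PANC-1 rose without it to 4102 higher and 4626 lower, from 2595 and 3007.

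The inhibitors also split. TIMP1 (chromosome X, 47582313 to 47586789, plus strand), a secreted inhibitor of most MMPs, rose in both lines. BxPC3 controls held 120, 137, 117 and 124 FPKM and gemcitabine libraries 154, 162, 168 and 193 FPKM. The mean was 1.36-fold higher, with a log2 change of 0.44 ± 0.07 (limma adjusted p = 3.85e-04) and no overlap. In PANC-1 the controls held 59.6, 64.8, 61.7 and 62.9 FPKM and the gemcitabine libraries 117, 88.8, 91.2 and 87.0 FPKM. That was 1.54-fold higher (log2 change 0.61 ± 0.09, limma adjusted p = 8.15e-04), with the first gemcitabine library well above the other 3.

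TIMP2 (chromosome 17, 78852977 to 78925387, minus strand), which blocks MMPs and also forms the complex with MMP14 that activates MMP2, rose in both lines with little spread. BxPC3 went from 12.8, 13.5, 13.3 and 13.4 FPKM to 22.1, 22.7, 22.3 and 22.2 FPKM, 1.69-fold higher (log2 change 0.71 ± 0.03, limma adjusted p = 2.73e-08). PANC-1 went from 15.0, 15.9, 15.7 and 16.05 FPKM to 40.1, 43.4, 43.7 and 44.6 FPKM, with a log2 change of 1.40 ± 0.06 (limma adjusted p = 2.92e-07). The control levels of TIMP2 were close in the 2 tables, and the gemcitabine levels were apart.

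TIMP3 (chromosome 22, 32801701 to 32863043, plus strand), the inhibitor that stays bound to the matrix, fell in BxPC3. Controls held 93.9, 89.3, 93.3 and 91.8 FPKM and gemcitabine libraries 48.9, 49.6, 48.7 and 48.9 FPKM. Its mean was 1.88-fold lower, with a log2 change of -0.90 ± 0.03 (limma adjusted p = 6.76e-09) and a wide gap between the groups. PANC-1 had little TIMP3, with 1.07, 1.35, 1.07 and 1.07 FPKM in controls and 1.35, 1.04, 1.13 and 1.30 FPKM with gemcitabine. There the groups overlapped and the log2 change of 0.04 ± 0.07 did not pass (limma adjusted p = 0.661).

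**Figure D2:**
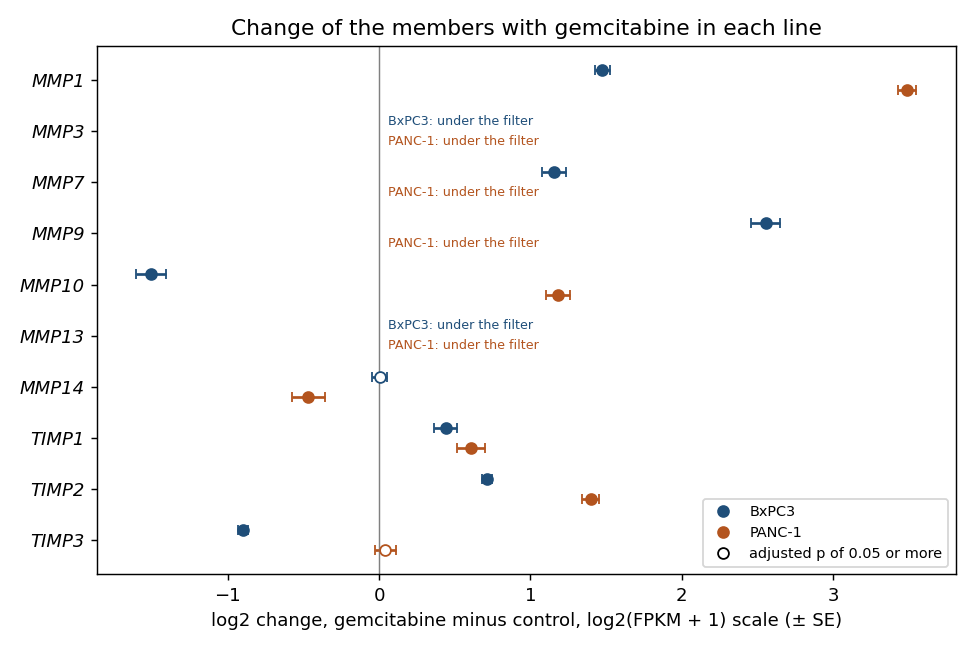
Log2 change with gemcitabine (± SE) of each gene in BxPC3 (blue) and PANC-1 (orange) on the log2(FPKM + 1) scale, where open points have an adjusted p of 0.05 or more and genes under the filter carry a note in place of a point. MMP1 lies at 1.48 and 3.49, MMP10 lies on opposite sides of 0, and TIMP3 is below 0 in BxPC3 and near 0 in PANC-1.

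Whether the lines differed in the effect was tested as the interaction of line and gemcitabine over all 16 libraries and 14134 genes. Of the 8 members tested, 7 passed, beside 51.8% of all tested genes, 25.2% with the PANC-1 change above and 26.6% with it below. The change in PANC-1 lay above that in BxPC3 for MMP1, by 2.01 ± 0.08 log2 units (limma adjusted p = 4.00e-12), MMP10, by 2.69 ± 0.13 (7.09e-11), TIMP2, by 0.69 ± 0.06 (1.15e-07), and TIMP3, by 0.94 ± 0.08 (4.20e-08). It lay below for MMP14, by -0.47 ± 0.12 (0.00375), MMP7, by -0.98 ± 0.10 (6.77e-07), and MMP9, by -2.42 ± 0.12 (8.56e-11). TIMP1 did not pass, with a difference of 0.17 ± 0.13 (limma adjusted p = 0.288), so a difference of its rise between the lines was not shown.

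The differences of MMP7, MMP9 and MMP10 depend to unequal degrees on the scale, and MMP7 and MMP9 entered the test through BxPC3 and were scarce in PANC-1. As ratios of means, MMP7 was 2.68-fold higher in BxPC3 and 3.90-fold higher in PANC-1, and MMP9 was 10.4-fold and 6.76-fold higher. With a pseudocount of 0.1 the MMP7 difference was -0.47 (limma adjusted p = 0.103), and with limma-voom on the recovered reads it was 0.33 (0.608). The MMP9 difference was -2.47 with the pseudocount of 0.1 (limma adjusted p = 1.67e-05), -2.72 on TPM (3.97e-08) and -1.98 with limma-voom (0.126). The MMP10 difference passed in all of these and was 6.15, 4.76 and 8.09. MMP10 entered the test only through BxPC3 controls and PANC-1 gemcitabine libraries, so a difference between the lines had to be seen.

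The order of the genes by level changed with gemcitabine. In BxPC3 controls it ran MMP14, TIMP1, TIMP3, MMP1, TIMP2, MMP7, MMP10, MMP9, MMP13 and MMP3, where the ranges of MMP7 and MMP10 and of MMP13 and MMP3 overlapped. With gemcitabine MMP1 stood above TIMP3, MMP9 above MMP7, and MMP10 shared the last place with MMP3. PANC-1 controls ran TIMP1, MMP14, TIMP2, MMP1 and TIMP3, with the other 5 members at 0.162 FPKM or less in every library. With gemcitabine MMP1 and TIMP1 led with overlapping ranges, followed by TIMP2 and MMP14, and then by MMP10 and TIMP3 with overlapping ranges.

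**Figure D3:**
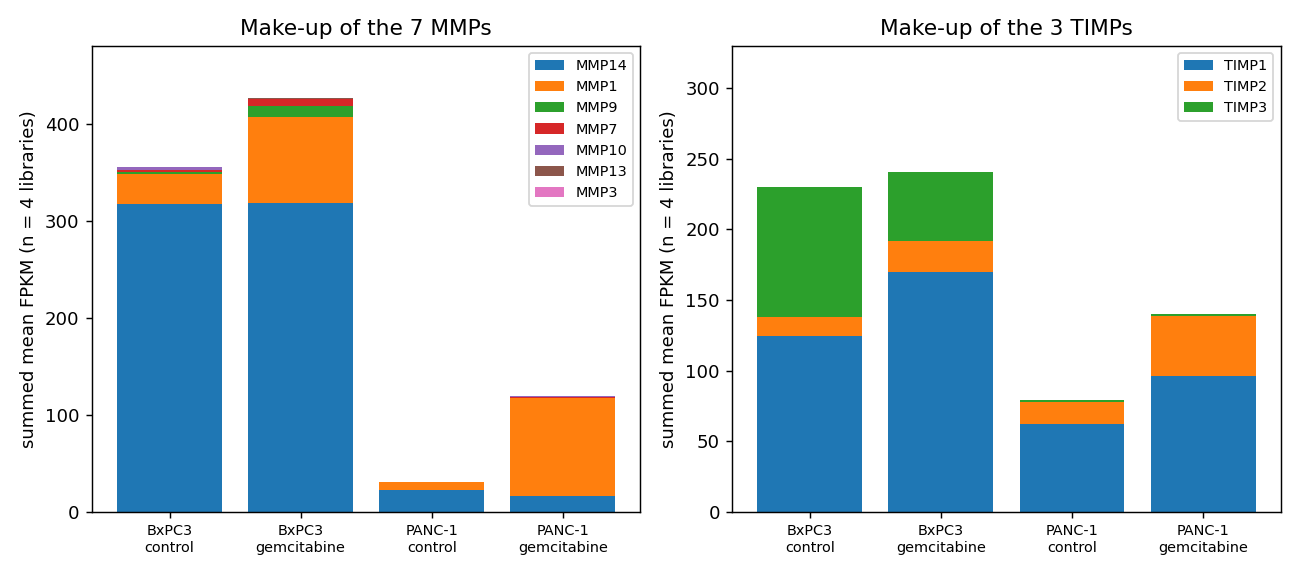
Stacked mean FPKM (n = 4 libraries per group, linear axes from 0) of the 7 MMPs on the left and the 3 TIMPs on the right. MMP14 fills most of the MMP bar in BxPC3 and in PANC-1 controls, whereas MMP1 fills 84.8% of it in PANC-1 with gemcitabine, and TIMP3 is a visible part of the TIMP bar only in BxPC3.

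Added over the 7 MMPs, BxPC3 held 355 ± 16.9 FPKM in controls and 427 ± 15.98 with gemcitabine (SD, n = 4). MMP14 made up 89.3% of that sum in controls and 74.6% with gemcitabine, and MMP1 8.74% and 20.7%. PANC-1 went from 30.5 ± 0.801 to 120 ± 3.95 FPKM, with MMP14 at 72.9% in controls and 13.4% with gemcitabine and MMP1 at 26.6% and 84.8%. Of these 7 genes MMP14 thus held most of the sum in PANC-1 controls and MMP1 most of it with gemcitabine. Added over all 23 MMP genes looked at, the sum was 194 ± 9.12 and 182 ± 7.53 FPKM in PANC-1, where MMP2 made up 72.8% and 24.7% and MMP1 4.18% and 55.8%. In BxPC3 the 23 genes summed to 568 ± 24.0 and 542 ± 19.1 FPKM, so the higher sum of the 7 with gemcitabine was not seen over all 23 in either line.

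The 3 TIMPs summed to 230 ± 6.79 FPKM in BxPC3 controls and 241 ± 16.7 with gemcitabine, where TIMP3 went from 40.1% to 20.4% of the sum and TIMP1 from 54.1% to 70.3%. In PANC-1 the sum was 79.1 ± 2.68 and 140 ± 12.0 FPKM, and TIMP3 made up 1.44% and 0.861% of it. MMP1 over TIMP1, the ratio of a collagenase to its abundant inhibitor at the RNA level, was 0.250 and 0.523 in BxPC3 and 0.130 and 1.08 in PANC-1. MMP14 over TIMP2 was 24.0 and 14.3 in BxPC3 and 1.42 and 0.375 in PANC-1. These sums and ratios are descriptions of RNA with no test, and they say nothing of protein or activity.

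Of the 7 MMPs, 5 lie in a cluster on chromosome 11, and so share a neighbourhood that the choice of the genes did not use. From MMP7 to MMP13 the cluster spans 102520508 to 102955734 and holds 9 MMP genes, all on the minus strand, in the order MMP7, MMP20, MMP27, MMP8, MMP10, MMP1, MMP3, MMP12 and MMP13. In BxPC3 the direction switched between direct neighbours: MMP10 fell and MMP1, the next MMP gene, rose. MMP12, between MMP3 and MMP13, held 0.534, 0.846, 0.802 and 0.714 FPKM in BxPC3 controls and 0.555, 0.121, 0.123 and 0.156 with gemcitabine, on 182 and 59 reads and with overlap through 1 library. In PANC-1 MMP12 had 1 read in controls and 15 with gemcitabine.

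MMP27 had 0 reads in all groups, and MMP8 and MMP20 had at most 4 reads in any group. WTAPP1, a transcribed pseudogene on the opposite strand that runs past MMP10 and MMP1 and into MMP3, shares 150 exon bases with MMP1, 32 with MMP3 and 0 with MMP10. It was at 0.368 and 0.174 FPKM in BxPC3 and had 3 and 21 reads in PANC-1, which is small beside MMP1 in every group. MMP1 made up 84.5% of the FPKM of the 5 members in the cluster in BxPC3 controls, 90.7% with gemcitabine, and 98.4% and 98.1% in PANC-1.

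**Figure D4:**
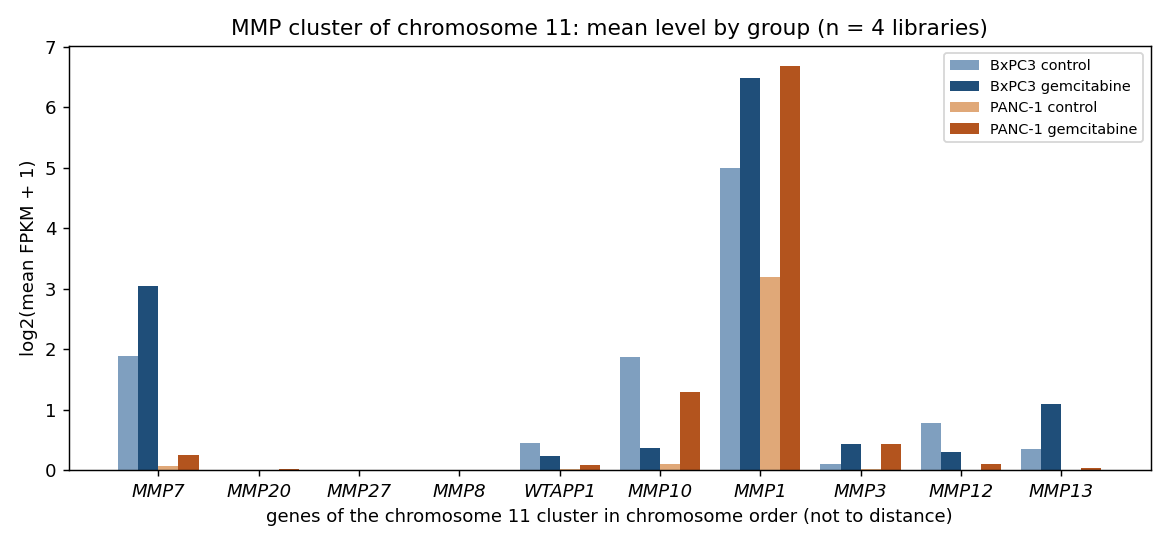
Bars from 0 give log2(mean FPKM + 1) of the MMP genes and WTAPP1 in the chromosome 11 cluster, in chromosome order and not to distance, for the 4 groups of 4 libraries. MMP1 is the tallest in every group, MMP10 is lower with gemcitabine in BxPC3 and higher in PANC-1, and MMP20, MMP27 and MMP8 are at or near 0.

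Of 16 other MMP genes, 2 were tested in BxPC3 and 5 in PANC-1, and none of those tested rose. Among all tested genes 37.3% rose and 36.1% fell in BxPC3, and 20.7% rose and 24.0% fell in PANC-1. Under the filter, MMP24 in BxPC3 and MMP12 and MMP19 in PANC-1 lay wholly above their controls. MMP11 and MMP19 in BxPC3 and MMP25 in PANC-1 lay wholly below theirs. MMP28, an epithelial MMP known as epilysin, fell in BxPC3 from 157 ± 6.72 to 64.0 ± 3.27 FPKM (log2 change -1.28 ± 0.05, limma adjusted p = 8.94e-09), and MMP15, another membrane-type enzyme, from 54.0 to 49.8 FPKM (adjusted p = 0.0121). In PANC-1 MMP2, the gelatinase that MMP14 and TIMP2 activate, fell from 136, 151, 144 and 135 FPKM to 54.6, 41.4, 42.7 and 41.9 FPKM. Its log2 change was -1.63 ± 0.09 (limma adjusted p = 2.55e-06), and it was the most abundant MMP gene in PANC-1 controls. MMP11, MMP15 and MMP16 also fell in PANC-1, by 0.60, 0.55 and 0.39 on the log2 scale, and MMP17 was at 9.28 and 9.11 FPKM and did not pass. BxPC3 had 12 and 39 reads of MMP2.

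Genes that activate or restrain MMPs were read from a list of 20. In BxPC3 11 rose and 3 fell of 14 tested, beside 73.4% of all tested genes that passed, with a median log2 change of 0.32 beside 0.004 over all genes tested. In PANC-1 7 rose and 3 fell of 13, beside 44.8%, with a median of 0.34 beside -0.02. PLAT passed the filter in PANC-1 only through its gemcitabine libraries (0.193 and 1.34 FPKM), so its rise had to be seen. PLAU, the urokinase that makes plasmin and so starts the activation of several MMPs, rose in BxPC3 from 65.1 to 142 FPKM and in PANC-1 from 91.7 to 386 FPKM (limma adjusted p = 2.87e-08 and 5.57e-08). Its receptor PLAUR rose from 8.58 to 44.3 FPKM and from 2.02 to 4.87 FPKM. SERPINB2, an inhibitor of urokinase, rose in BxPC3 from 4.80 to 90.8 FPKM. LRP1, the receptor that clears MMPs and TIMPs from the cell surface, fell from 11.1 to 4.80 FPKM in BxPC3 and from 5.47 to 1.93 FPKM in PANC-1. RECK, a membrane-bound inhibitor of MMPs, had 0 reads in BxPC3 and fell in PANC-1 from 8.47 to 5.31 FPKM (limma adjusted p = 5.82e-05).

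Of 20 transcription factors known at MMP promoters, 6 rose and 10 fell of 19 tested in BxPC3 (median log2 change -0.19), and 6 rose and 3 fell of 17 in PANC-1 (median 0.06). Of all tested genes 73.4% and 44.8% passed in these lines, shares that 16 of 19 and 9 of 17 lie near. FOSL1, an AP-1 subunit, rose in both lines, from 25.0 to 126 FPKM and from 76.5 to 178 FPKM. JUNB, another AP-1 subunit, fell in BxPC3 from 197 to 115 FPKM and was at 20.6 and 21.8 FPKM in PANC-1. ETS2 fell in BxPC3 from 46.8 to 25.8 FPKM and rose in PANC-1 from 23.7 to 36.5 FPKM, and ETV4 fell from 10.9 to 7.64 FPKM and rose from 4.74 to 7.54 FPKM. ETS1 rose in both lines, from 11.9 to 24.3 FPKM and from 34.2 to 40.9 FPKM. RUNX2 also rose in both, from 1.20 to 1.49 FPKM in BxPC3, with overlapping groups, and from 0.784 to 1.68 FPKM in PANC-1. RUNX2 in PANC-1 and ATF3 in BxPC3 (0.939 and 2.33 FPKM) had control means under 1 FPKM. They passed the filter largely through their gemcitabine libraries. The filter thus favoured a rise of both, and both count in the numbers and medians above. A link of these factors to the members was not tested.

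Among 14 ligands known to raise MMP transcription, 9 of 10 tested rose in BxPC3 and 5 of 7 in PANC-1, none fell, and the median log2 changes were 1.29 and 1.14. Of all tested genes 37.3% rose in BxPC3 and 20.7% in PANC-1. In BxPC3 IL6 (0.120 and 3.83 FPKM) and TNF (0.143 and 1.22 FPKM) passed the filter only through their gemcitabine libraries. Their rises had to be seen once they were tested, and they count in the 9 of 10 and in its median. IL1A and IL1B, which encode interleukin-1, rose in BxPC3 from 24.0 to 70.1 FPKM and from 6.91 to 30.8 FPKM. The EGF receptor ligands AREG and EREG rose in PANC-1 from 2.90 to 14.2 FPKM and from 2.86 to 17.8 FPKM. TGFB1 was the ligand that did not pass in BxPC3, at 97.4 and 101 FPKM.

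Of 22 genes for matrix and surface substrates, 8 rose and 5 fell of 13 tested in BxPC3 and 9 rose and 3 fell of 13 in PANC-1, with medians of 0.30 and 0.80, beside 73.4% and 44.8% of all tested genes that passed. In PANC-1 COL4A1, COL4A2, LAMA3 and LAMB3 passed the filter through their gemcitabine libraries, with control means of 0.120 to 0.361 FPKM. VCAN passed it there through its controls (1.30 and 0.243 FPKM), and FN1 passed it in BxPC3 through its gemcitabine libraries. The differences of these genes had to be seen once they were tested, and they count in the numbers and medians above. FN1, fibronectin, rose in BxPC3 from 0.609 to 8.07 FPKM and fell in PANC-1 from 16.9 to 6.02 FPKM. COL3A1, a fibrillar collagen that MMP1 cleaves, fell in BxPC3 from 4.82 to 1.31 FPKM. COL1A1, another fibrillar collagen, rose in BxPC3 from 1.79 to 2.42 FPKM and fell in PANC-1 from 11.4 to 8.43 FPKM, there with overlapping groups, and COL5A1 rose in BxPC3 from 2.18 to 3.62 FPKM.

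For the 6 members tested in both lines, the genes most like them were sought by Pearson's r of log2(FPKM + 1) over the 16 libraries after the mean of each line was subtracted, among 9764 protein-coding genes. The libraries share the treatment contrast, so r mostly reads the sizes of both changes and carries no p. MMP1 was most like LCP1 (r = 0.997) and FHL1 (0.997). MMP10 was most like SPP1 (0.988), PAK1 (0.987) and ETS2 (0.986), all of which, like MMP10, were lower in BxPC3 and higher in PANC-1. TIMP2 was most like KIF20A (0.998), NOV (0.997) and MMP1 itself (0.996). For TIMP1 they were GAPDH (0.989), ACTB (0.988) and CENPM (0.986), for TIMP3 C22orf23 (0.986), KIAA0513 (0.984) and BCL6 (0.982), and for MMP14 LRRC61 (0.985), FBXO2 (0.983) and HCN2 (0.983).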

How the data were processed

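For each line the authors deposited a gene by library table of FPKM values and, as the other unit used, the length of each gene in bases, per the file headers. The libraries were poly-A enriched, per the labels' protocols. Per the submitters' processing notes, the tools were CASAVA and HISAT2, with no version, and the build was the mouse build mm10. All 58735 gene identifiers are human, however, and 58724 match start and end in GENCODE 29, so positions are GRCh38. Which program counted reads, and with which strand setting, is not given in the sources used here.

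Groups and replicate numbers came from the sample titles. FPKM times gene length came out as whole reads for 100% of values (tolerance 0.02 reads). Intervals and floors of 3 reads cover counting error only. Replicates of a group differed by more than counting noise, with a chi-square per degree of freedom no lower than 2.07.

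Limma 3.58.1 in R 4.3.3, with trend and robust options, was fitted to log2(FPKM + 1) in each line alone. It took genes that reached 1 FPKM in 4 or more libraries, and p-values were adjusted by Benjamini-Hochberg over all of them. The interaction used all 16 libraries. Members under the filter were compared by exact permutation with scipy 1.17.1. The scripts were tested on simulated data. The rule for named genes took all 10 members, every other MMP with a group mean of 1 FPKM or more, SMAD4 and CDKN2A, genes that overlap or neighbour a member, up to 4 genes per line with the smallest p of each list, and the 3 genes most like each member. RECK, JUNB, ETV4, TGFB1, COL1A1, COL5A1, PTPRC, PECAM1, CDH5, KDR, KRT7 and CDH1 were named after their values were seen, as were PLAU and LRP1 in BxPC3. So were TNF, LAMA3, LAMB3, VCAN, ATF3, MMP19, MMP24 and MMP25, RUNX2 in BxPC3 and ETS1 in PANC-1. Some genes that the rule took are not reported here. Both the members and the lists were chosen with earlier results of these data known.

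The alternatives tried were 0.1 as the pseudocount, testing without the filter, scaling by median ratios or to TPM, limma lacking its trend and robust options, a restriction to protein-coding genes, a block on the replicate number, limma-voom on recovered reads, an absolute log2 change of at least 1, and leaving out each library. After the data were seen, removal of each library's GC trend was added.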

Additional observations from a re-analysis of the deposited data

Results flagged for a closer look

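Of the 39 sets of 4 libraries looked at, 1 per member and group, 6 had a library far from the other 3. For independent normal values chance flags about 1 in 20 such sets, a rate not tested here. Some flags share a library and some sets lie near the floor, so no excess is read from them. MMP14 was at 339.9 FPKM in BxPC3 control 2 and at 309 to 311 in the others. In PANC-1 control 2, MMP14 was at 23.3 FPKM (others 21.8 to 22.0), TIMP3 at 1.35 (others 1.07) and MMP3 at 0.0391 (others 0). TIMP1 was at 116.5 FPKM in PANC-1 gemcitabine 1, the library with the GC trend, and at 87.0 to 91.2 in the others. MMP9 was at 0 in PANC-1 gemcitabine 4 and at 0.151 to 0.161 in the others.

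In the test of the interaction on log2(FPKM + 1), 7 members passed. The difference of log2 change, PANC-1 minus BxPC3, was 2.01 for MMP1, 2.69 for MMP10, 0.69 for TIMP2, 0.94 for TIMP3, -0.47 for MMP14, -0.98 for MMP7 and -2.42 for MMP9. Those of MMP7 and MMP9 rest on few reads in PANC-1 and did not pass with limma-voom on the recovered reads. MMP10 entered the test only through the groups where it was high.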

How the results depend on the processing

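The count of members called was 7 in BxPC3, 5 in PANC-1 and 7 for the difference between lines. It stayed so with each library left out in turn (7, 5 and 7) and with the replicate block (7, 5 and 7). The replicate numbers share only a number: same-numbered libraries correlated at -0.38 to 0.19 in their deviations. Requiring an absolute log2 change of at least 1 left 4, 3 and 3 members. Testing all genes with a read in PANC-1 gave 8 of 10 (MMP3, MMP7 and MMP13 then passed, and MMP9 did not). Of the 33218 genes tested so, 3349 were called higher and 2926 lower. MMP13 passed there on 0 and 9 reads, too few to judge. In BxPC3 the same setting gave 9 of 10, beside 5468 higher and 5245 lower of 36939 genes. TPM scaling gave 9 of 9 in BxPC3, beside 5969 higher and 4361 lower of 15659 genes. Limma-voom gave 5 for the difference, and the value of MMP7 reversed there to 0.33 from -0.98. The log2 change of MMP14 in BxPC3, 0.00 ± 0.05, took both signs, from -0.0114 to 0.0371, when libraries were left out, namely -0.0051, -0.0074 and -0.0086 without controls 1, 3 and 4 and -0.0114 and -0.0106 without gemcitabine libraries 3 and 4. The cause was not tested. Of the other single values, 429 kept their direction and side of the threshold. Depth limits MMP3 and MMP13 in both lines and MMP7 and MMP9 in PANC-1.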
